A study of Mus musculus with 6 samples.

Results

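The 43 genes described here encode proteins that fill, dock, prime, fuse or recycle synaptic vesicles. They were taken by symbol from a list of synaptic vesicle and release machinery genes, and all 43 were present among the 20367 genes of the 6 libraries. They were grouped as 13 synaptotagmins, 3 SV2 proteins, 11 SNARE proteins and partners, 3 complexins, 7 synapsins, synaptophysin and Rab3 proteins, and 6 active zone proteins. No measured value entered the choice by rule, although the list was drawn up with earlier results of these data known.

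A synaptic vesicle fuses when a SNARE on the vesicle (synaptobrevin, also called VAMP) winds together with SNAREs on the plasma membrane (syntaxin and SNAP-25). Synaptotagmins sense the calcium that enters with an action potential, complexins hold and promote the partly wound complex, and Unc13 and RIM proteins prime vesicles at the active zone. In the embryonic cortex most neurons have few synapses, and many of these proteins are made while axons still grow.

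The cells came from cortices of C57BL/6J embryos bred from heterozygous Tbr2(Eomes)-GFP and homozygous DCX-mRFP mice. Embryos positive for both reporters were used: GFP for Tbr2, which marks intermediate progenitors in the cortex, and mRFP for doublecortin (DCX), a protein of young neurons. Double-colored cells were collected as the IPN group, neurons born from intermediate progenitors, and red-only cells as non-IPN. The series title frames the 2 populations as projection neurons and interneurons. Each population gave 1 library at embryonic day 13.5 (E13.5), day 15.5 (E15.5) and day 16.5 (E16.5), so a level has no replicate at its own age. RNA of 1000000 cells per population was used without amplification at E15.5. At E13.5 and at E16.5 it came from 10000 cells, and the cDNA was amplified with the Ovation RNA-Seq System V2 (NuGEN). No label says how many embryos were pooled.

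CPM here means the deposited value divided by the column total of its library, per 1000000. Column totals ran from 12583677 to 32538995. Log2 ratios, log2 changes, tests and counts of direction use the deposited values as log2(value + 1), which are scaled differently from CPM. The 2 scales can differ in sign where a ratio is near 0: in CPM, Vamp2, Stx1a, Stxbp5, Snap47 and Unc13a at E16.5 and Rab3c at E15.5 were lower in IPN, while their log2 ratios were above 0. Of 8 projection neuron markers, 8, 8 and 7 were higher in IPN at the 3 ages, with summed levels of 3300.9 to 5069.5 CPM in IPN and 408.3 to 2507.7 in non-IPN. All 8 interneuron markers were lower in IPN at every age, with sums of 17.5 to 57.7 CPM against 1074.5 to 4174.4. In IPN, Dlx5 and Dlx6 were listed at 0 at E13.5, and Dlx6 and Slc32a1 at E16.5. All 10 microglia markers were also lower in IPN, with sums of 1.8 to 6.1 CPM against 468.8 to 928.1. The E13.5 non-IPN library stood apart: hemoglobin genes took 4.92% of its total, against at most 0.0275% elsewhere. Its 9 radial glia markers summed to 4318.1 CPM, against 377.2 to 1247.2 in the other 5 libraries. In sorted cell pools, fewer cells of a type and less RNA per cell cannot be told apart.

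Most of the machinery was detected in the libraries of both populations. Between 42 and 43 members were above 0 in each library, and 23 to 36 reached 10 CPM. Of all 20367 genes, 15450 to 17195 were above 0 and 7655 to 9692 reached 10 CPM. In every library, 5 members stayed under 3 CPM: Syt2 (0.06 to 2.27 CPM), Syt12 (0.32 to 1.0), Syt17 (0 to 0.95), Sv2c (0.36 to 0.80) and Cplx3 (0 to 0.27). Of these, Syt17 was listed at 0 in both E13.5 libraries, and Cplx3 in IPN at E15.5 and in non-IPN at E16.5. Per kilobase of the longest GENCODE M21 coding transcript, the highest mean levels over the 6 libraries were 195.35 CPM per kb for Snap25 and 178.82 for Syt4. Snap47 (64.26), Rab3a (59.75), Vamp2 (43.46) and Syt11 (42.66) came next. Neighbors in that order overlapped in range over the libraries, Snap25 and Syt4 included.

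**Figure D1:**
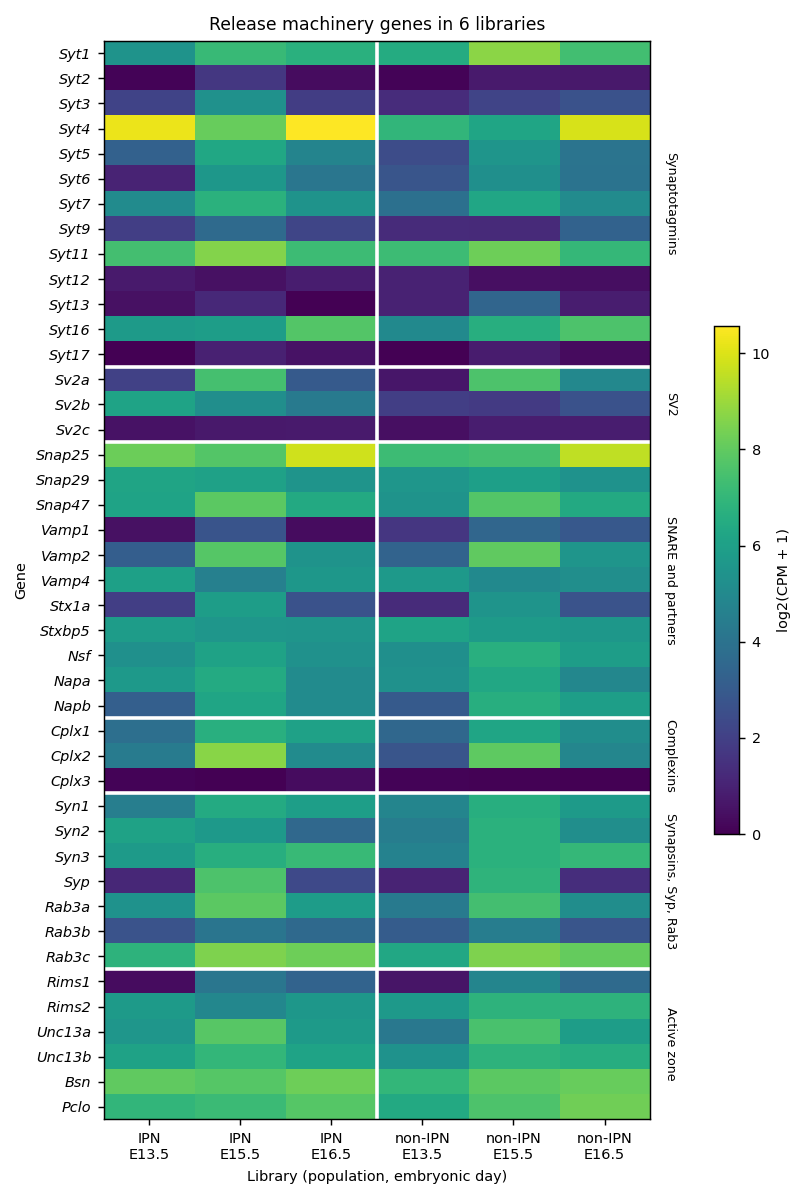
Level of each of the 43 genes as log2(CPM + 1) (color) in the 6 libraries (columns, by population and embryonic day), with white lines between gene groups. Snap25 and Syt4 were among the brightest rows at E16.5, whereas Syt2, Syt12, Syt17, Sv2c and Cplx3 stayed dark in every library.

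The first comparison asked which of these genes differ between IPN and non-IPN. Sv2b and Syt4 were higher in IPN, and none of the other 41 members passed the test. Sv2b encodes a vesicle glycoprotein, and Syt4 a synaptotagmin whose first C2 domain does not bind calcium and which sits on dense-core and Golgi-derived vesicles. The 2 called members are 4.65% of the list, and both were higher, against 3.39% of all 19561 genes called in either direction and 0.982% called higher (limma, adjusted p under 0.05). At an unadjusted p under 0.05, 12 members and 2665 of all genes passed. With only genes of a mean of at least 1 CPM tested, 2 of 38 members were called, against 4.71% of genes. The median log2 difference, IPN minus non-IPN, was 0.38 over the members and -0.02 over all genes. With CPM values these medians were 0.12 and -0.06, and 28 members in place of 32 were above 0.

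Sv2b showed the largest difference of the list. In age order, its IPN levels were 68.25, 35.90 and 18.74 CPM, and its non-IPN levels 2.93, 2.52 and 5.40 CPM. Every IPN library was above every non-IPN library, and the gap was narrowest at E16.5. The fitted log2 difference was 3.51 ± 0.54 (SE; limma, adjusted p = 0.00538), an 11.4-fold higher value. Its paralog Sv2a differed. Sv2a, the vesicle protein bound by the antiepileptic drug levetiracetam, was at 3.10, 174.9 and 6.98 CPM in IPN and at 0.57, 195.3 and 29.88 in non-IPN, so that the populations changed order with age. Its fitted difference was 0.16 ± 0.67 (limma, adjusted p = 0.943). Sv2c had log2 ratios of 0.42, -0.24 and 0 at levels under 1 CPM.

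The upstream sequences of Sv2b and Sv2a are shown because Sv2b was called between the populations and its paralog Sv2a for the change of its ratio with age. Each is the 250 bases before the RefSeq start (build GRCm38.p6), 5′ to 3′ on the gene's strand, with CG dinucleotides in capitals. For Sv2b, the most upstream of 4 listed starts was taken (chr7:75309263-75309512, minus strand), and the Sv2a window is chr3:96180977-96181226 on the plus strand.
Sv2b: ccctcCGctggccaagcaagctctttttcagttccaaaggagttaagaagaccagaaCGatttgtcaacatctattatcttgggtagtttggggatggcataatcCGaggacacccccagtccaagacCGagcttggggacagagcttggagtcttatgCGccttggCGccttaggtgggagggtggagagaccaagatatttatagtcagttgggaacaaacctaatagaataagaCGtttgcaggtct
Sv2a: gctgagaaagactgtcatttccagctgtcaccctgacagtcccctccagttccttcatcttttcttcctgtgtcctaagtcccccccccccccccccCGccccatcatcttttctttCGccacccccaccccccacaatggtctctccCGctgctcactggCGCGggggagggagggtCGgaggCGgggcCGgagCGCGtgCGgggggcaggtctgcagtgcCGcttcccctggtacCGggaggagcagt
The Sv2b window held 7 CG dinucleotides at 48.8% GC, and the Sv2a window held 13 at 66.0% GC. Windows were matched for 33 of the 43 members. The median of their 43 windows was 62.0% GC and 15 CG dinucleotides, against 52.4% and 6 over all 32851 windows of that length.

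Syt4 was at 1222.4, 275.2 and 1512.5 CPM in IPN at the 3 ages and at 122.1, 72.41 and 971.3 in non-IPN. IPN was higher at each age, but the E16.5 non-IPN library was above the E15.5 IPN library, so the groups overlapped. The fitted log2 difference was 2.10 ± 0.41 (limma, adjusted p = 0.0268), a 4.29-fold higher value. Syt1, the main sensor for fast release in forebrain neurons, showed the opposite order. It was at 42.59, 137.0 and 104.2 CPM in IPN and at 90.23, 422.0 and 163.2 in non-IPN. Non-IPN was higher at every age, yet the fitted difference of -0.98 ± 0.25 missed the threshold (limma, adjusted p = 0.0724).

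None of the other 11 synaptotagmins passed either. Syt7, a sensor with high calcium affinity, had log2 ratios of IPN to non-IPN of 1.41, 0.54 and 0.59 in age order. Syt5 had ratios of 1.09, 0.84 and 0.96, the steadiest of the family after Syt11 (0.28, 0.44 and 0.46). None of these 3 passed (limma, adjusted p = 0.184 for Syt7, 0.202 for Syt5 and 0.45 for Syt11). Syt3 and Syt9 were far higher in IPN at E15.5 only: Syt3 was at 39.31 CPM against 3.48, and Syt9 at 11.65 against 1.40. At E16.5 both were lower in IPN, at 2.74 against 5.24 and 3.62 against 8.90 CPM. The smallest adjusted p among Syt2, Syt3, Syt6, Syt9, Syt12, Syt13, Syt16 and Syt17 was that of Syt13 (-2.44 ± 0.87, limma adjusted p = 0.222). Syt13 was low, at 0.39, 1.35 and 0 CPM in IPN and at 1.0, 9.76 and 0.79 in non-IPN.

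None of the 11 SNARE proteins and partners passed the population test, and 2 had an unadjusted p under 0.05 (limma). Snap25 was at 293.2, 211.3 and 900.8 CPM in IPN and at 152.0, 170.5 and 752.2 in non-IPN. IPN was higher at each age, with a fitted difference of 0.64 ± 0.21 (limma, adjusted p = 0.182). Vamp2, the main vesicle SNARE of forebrain synapses, had log2 ratios of -0.08, -0.19 and 0.11. Its relative Vamp1 was low, at 0.27 to 5.69 CPM in IPN and 2.14 to 10.30 in non-IPN, and lower in IPN at each age (-2.33 ± 0.80, limma adjusted p = 0.204). Stx1a, the syntaxin of the plasma membrane complex, had ratios of 1.13, 0.50 and 0.17, and Stxbp5 (tomosyn), which limits complex assembly, -0.14, -0.19 and 0.14. Nsf, the ATPase that takes spent complexes apart, and its adaptors Napa and Napb had fitted differences of -0.20, 0.38 and -0.21 on the log2 scale. Snap29, Snap47 and Vamp4 had 0.40, 0.42 and 0.24.

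Complexins, synapsins and Rab3 proteins likewise gave no call between populations. Cplx2 was at 20.10, 405.9 and 33.45 CPM in IPN and at 5.93, 245.2 and 27.65 in non-IPN, higher in IPN at each age (1.05 ± 0.31, limma adjusted p = 0.12). Cplx1 had log2 ratios of 0.48, 0.50 and 1.07 (0.68 ± 0.28, limma adjusted p = 0.306). Rab3a, a small GTPase of the vesicle surface, was at 40.98, 235.9 and 56.84 CPM in IPN and at 19.59, 169.7 and 34.73 in non-IPN. Its fitted difference was 0.89 ± 0.25 (limma, adjusted p = 0.0953). Rab3c, at 78.94 to 370.7 CPM over the libraries, had ratios of 0.65, 0.03 and 0.35. Syp (synaptophysin) had ratios of 0.32, 0.78 and 1.51, and Syn1, a synapsin that tethers vesicles to actin, -0.17, -0.10 and 0.37. The fitted differences of Cplx3, Syn2, Syn3 and Rab3b lay between -0.23 and 0.48.

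Among active zone genes, Bsn (bassoon), a large scaffold protein, had the highest mean level: 254.7, 217.9 and 301.8 CPM for IPN, and 125.3, 236.4 and 277.6 for non-IPN. The populations overlapped (0.48 ± 0.25, limma adjusted p = 0.472). The scaffolds Bsn and Pclo (piccolo) and the priming factors Unc13a and Unc13b had higher values in IPN at E13.5, with log2 ratios of 1.17, 0.69, 1.51 and 0.88. At E16.5 those ratios were 0.34, -0.30, 0.07 and -0.28. Rims2 was at 52.80, 28.95 and 46.58 CPM in IPN and at 50.76, 114.0 and 111.7 in non-IPN, a fitted difference of -0.92 ± 0.36 (limma, adjusted p = 0.276). Rims1 had ratios of -0.68, -0.65 and -0.10.

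Direction across ages was also counted. In 16 of 43 members (37.2%) the value was higher in IPN at all 3 ages, against 14.2% of all genes, and in 4 (9.3%) it was lower at all 3 ages, against 15.2%. The 4 were Syt1, Syt13, Vamp1 and Rims1. In CPM, 12 members (27.9%, against 9.64% of all genes) were higher in IPN at all 3 ages, without Snap47, Stx1a, Rab3c and Unc13a. In CPM, 6 (14.0%, against 20.8%) were lower, with Vamp2 and Stxbp5 added. At E13.5 the members summed to 3149.8 CPM for IPN and 1400.7 for non-IPN. Those sums were 4758.5 and 4556.3 at E15.5, then 4746.1 and 4197.0 at E16.5. Syt4 alone held 1222.4, 275.2 and 1512.5 CPM of the IPN sums and 122.1, 72.41 and 971.3 of the non-IPN sums. In CPM, 30, 22 and 23 members were higher in IPN at the 3 ages, and 12, 21 and 20 were lower. The 11 pan-neuronal markers measured had IPN sums of 4384.5, 9610.3 and 6030.8 CPM and non-IPN sums of 2012.1, 10868.3 and 7038.4, with none at 0. Dcx, the gene of the mRFP reporter, held 1391.7, 2862.0 and 3269.6 CPM of the IPN sums and 855.5, 4640.8 and 4448.1 of the non-IPN sums. By count, 10, 7 and 6 of these markers were higher in IPN at the 3 ages, and 1, 4 and 5 were lower. The part of the blood, radial glia and pan-neuronal levels of the E13.5 non-IPN library in these ratios was not tested. Without the E13.5 pair, Sv2b and Syt4 were still called, and Rims2 was called lower.

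**Figure D2:**
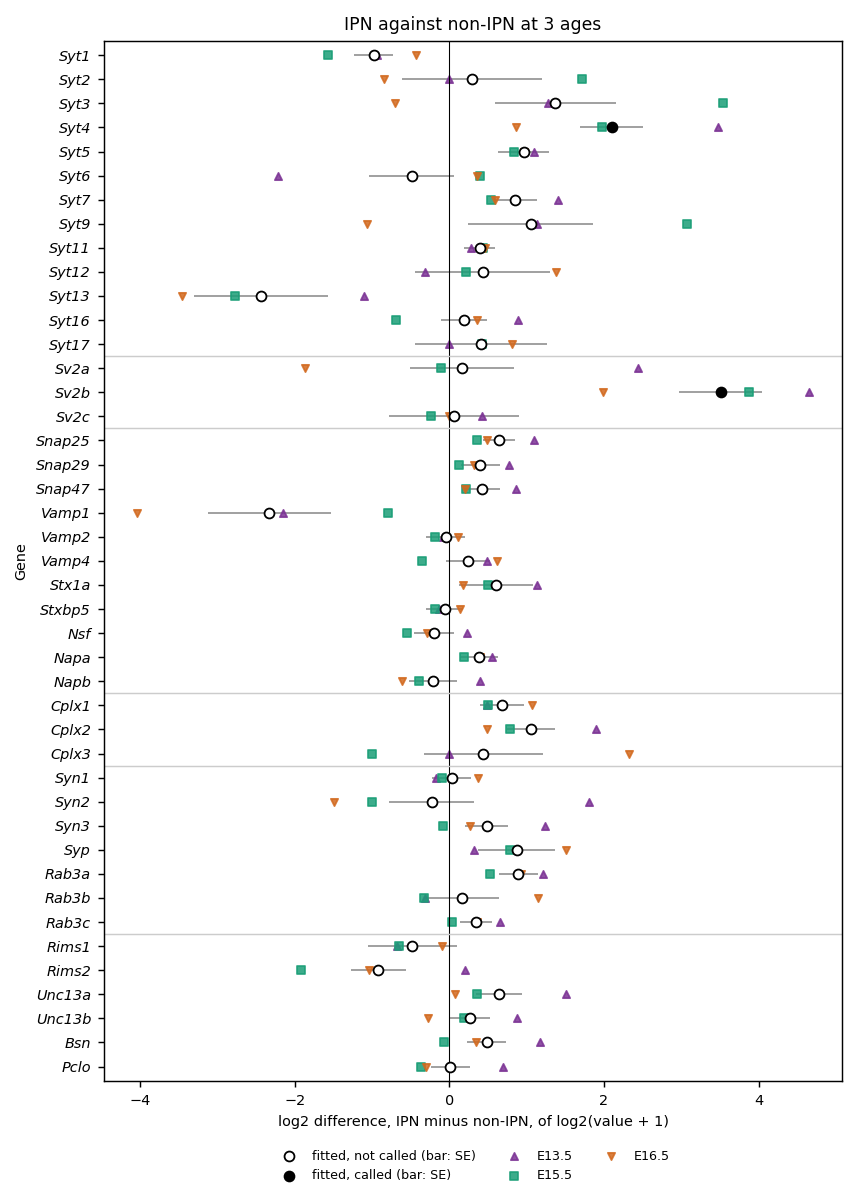
Log2 difference between IPN and non-IPN for each gene: colored symbols give each age, circles the fitted value with its standard error, and filled circles mark called genes. Sv2b and Syt4 carry the only filled circles, and many E13.5 symbols lie to the right of the E16.5 symbols.

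Both calls rested on the E15.5 pair and on the model. Without that pair the difference was 3.32 ± 0.74 for Sv2b (limma, adjusted p = 0.17) and 2.16 ± 0.54 for Syt4 (limma, adjusted p = 0.228), and neither passed with CPM values, without the age term or without the trend and robust options of limma. With CPM values 13 genes were called higher and 183 lower in IPN, in place of 192 and 472.

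The second comparison set E16.5 against E13.5, the ages that share cell number and amplification method. Between these ages 10 members rose and none fell, and the risers came from 5 of the 6 groups: Syt5, Syt16, Snap25, Vamp2, Napb, Cplx1, Syn3, Rab3c, Rims1 and Pclo. The 10 called members are 23.3% of the list, against 6.02% of all genes called in either direction and 3.76% called higher (limma). At an unadjusted p under 0.05, 18 members and 4217 of all genes passed. With only genes of a mean of at least 1 CPM tested, 11 of 38 members were called, against 10.3% of genes. The median log2 difference, E16.5 minus E13.5, was 0.84 over the members and 0 over all genes. By population it was 0.46 in IPN and 1.08 in non-IPN.

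All 3 core SNARE partners had higher values at E16.5. Snap25 went from 293.2 to 900.8 CPM in IPN and from 152.0 to 752.2 in non-IPN. Both E16.5 libraries were above both E13.5 libraries, and the fitted log2 difference was 1.85 ± 0.26 (limma, adjusted p = 0.00477), a 3.59-fold rise. At E15.5 it was lower than at E16.5, at 211.3 and 170.5 CPM. Vamp2 went from 8.01 to 41.79 CPM in IPN and from 9.37 to 45.06 in non-IPN, nearly the same step in both (2.20 ± 0.31, limma adjusted p = 0.00447), and stood at 215.5 and 255.2 CPM at E15.5. Stx1a went from 2.91 to 5.40 and from 1.43 to 5.56 CPM and was not called (1.28 ± 0.59, limma adjusted p = 0.24). Napb, a SNAP adaptor enriched in brain, went from 8.14 to 32.90 CPM in IPN and from 6.86 to 58.81 in non-IPN (2.43 ± 0.38, limma adjusted p = 0.00753), with 72.19 and 97.95 CPM at E15.5. By contrast, Napa, its widely expressed relative, was at 51.83 and 32.83 CPM in IPN and at 39.04 and 28.93 in non-IPN (-0.66 ± 0.30, limma adjusted p = 0.24). Vamp4 and Snap29, SNAREs of the Golgi and endosomal system, and Stxbp5 also had lower values at E16.5 in both populations, with fitted differences of -0.58, -0.57 and -0.54, and were not called.

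Rims1 showed the largest rise. This active zone organizer had E13.5 levels of 0.26 CPM for IPN and 0.50 for non-IPN, and at 9.23 and 11.52 at E16.5, with 16.72 and 27.16 between. Both populations started near the bottom of the range, and the size of the fitted log2 difference of 4.48 ± 0.71 (limma, adjusted p = 0.00775) depends on the pseudocount. Pclo went from 124.2 to 215.7 CPM in IPN and from 85.01 to 308.6 in non-IPN (1.21 ± 0.31, limma adjusted p = 0.0467), with 146.5 and 195.8 at E15.5. Rims2, Unc13a, Unc13b and Bsn had positive fitted differences of 0.36, 0.84, 0.51 and 0.58 that did not pass. In the same order, the log2 changes of these 4 were -0.26, 0.12, -0.07 and 0.16 in IPN, against 0.98, 1.57, 1.08 and 1.0 in non-IPN.

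In the synaptotagmin family, Syt16, which lacks calcium-binding residues, and Syt5 rose. Syt16 went from 53.06 to 213.4 CPM in IPN and from 31.75 to 192.7 in non-IPN (2.19 ± 0.37, limma adjusted p = 0.00952), with 57.99 and 97.24 at E15.5. Syt5 went from 8.60 to 26.47 and from 4.43 to 15.81 CPM (1.60 ± 0.41, limma adjusted p = 0.0459), with 77.51 and 44.83 at E15.5. In both genes the E16.5 libraries were above the E13.5 libraries. Syt1 had higher values at E16.5 in both populations and missed the threshold (0.95 ± 0.31, limma adjusted p = 0.102). Syt6 went from 1.10 to 16.76 CPM in IPN and from 5.93 to 15.26 in non-IPN, and also missed it (2.49 ± 0.68, limma adjusted p = 0.0601). Syt11 was lower at E16.5 in both, with log2 changes of -0.22 and -0.40.

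Cplx1, Syn3 and Rab3c complete the called genes. Cplx1 went from 13.44 to 64.50 CPM in IPN and from 10.65 to 35.60 in non-IPN (1.88 ± 0.34, limma adjusted p = 0.0125), with deposited values of 3255 in IPN and 2305 in non-IPN at E15.5. Syn3, a synapsin expressed early in neurons, went from 52.48 to 137.0 and from 24.67 to 131.7 CPM (1.78 ± 0.34, limma adjusted p = 0.0159), with 96.41 and 105.8 at E15.5. Rab3c went from 111.8 to 297.7 and from 78.94 to 271.0 CPM (1.48 ± 0.26, limma adjusted p = 0.0117), with 365.2 and 370.7 at E15.5. In each of these 3 genes both E16.5 libraries were above both E13.5 libraries. Sv2a lay at the edge of the test (3.23 ± 0.82, limma adjusted p = 0.05, not called), and Syp stayed low in these 4 libraries, at 1.07 to 4.04 CPM.

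In 27 of 43 members (62.8%) the value was higher at E16.5 in both populations, against 27.4% of all genes, and in 6 (14.0%) it was lower in both, against 24.5%. The 6 were Syt11, Syt13, Snap29, Vamp4, Stxbp5 and Napa. In CPM, 29 members (67.4%, against 32.3%) were higher in both. Over the same interval the 11 pan-neuronal markers had a median log2 change of 0.21 in IPN and 1.33 in non-IPN. None of the 11 cell cycle markers was higher at E16.5 in either, and they summed to 1464.1 and 627.0 CPM in IPN and to 4434.7 and 781.3 in non-IPN, with none at 0. The part of these shifts in the rise of the 10 genes was not tested.

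**Figure D3:**
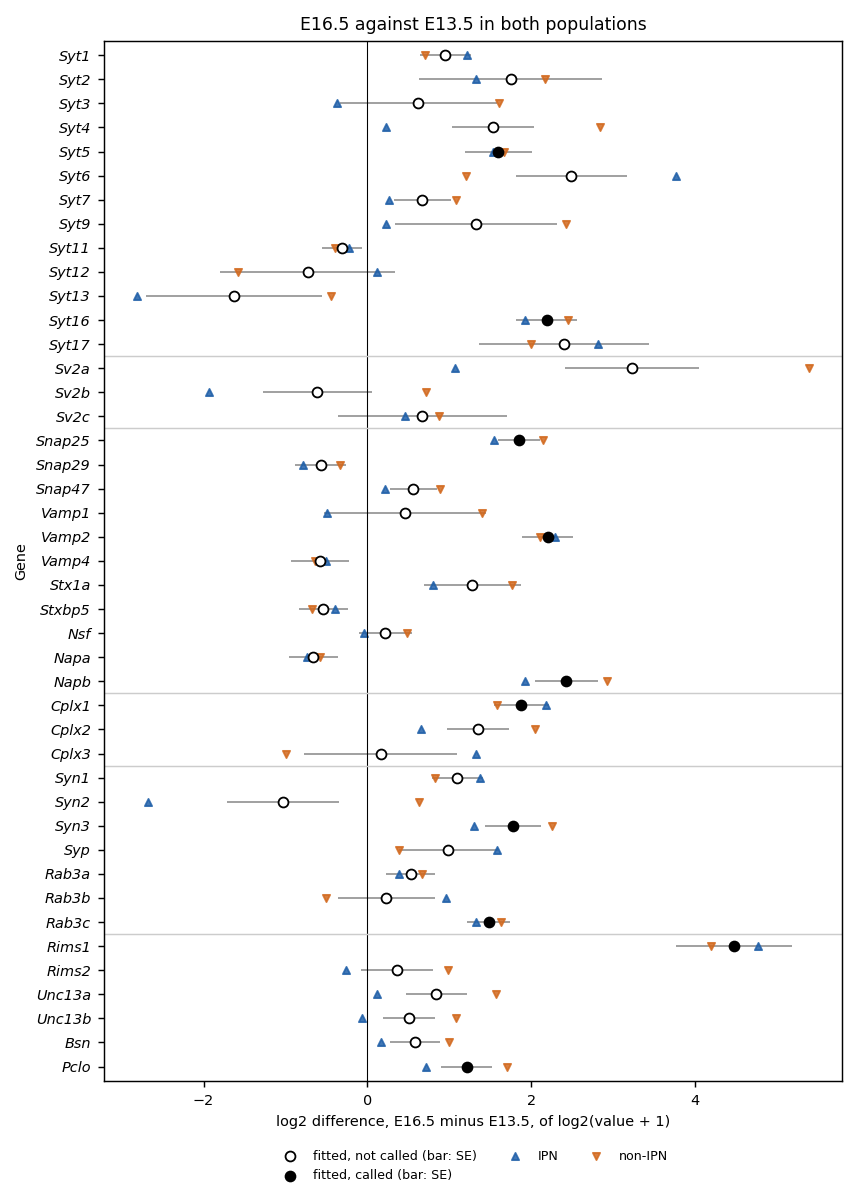
Log2 difference between E16.5 and E13.5 for each gene: triangles give each population, circles the fitted value with its standard error, and filled circles mark called genes. The 10 filled circles all lie to the right of 0, with Rims1 farthest, and Sv2b and Syn2 have IPN and non-IPN symbols on opposite sides of 0.

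The rise is measured with 1 pair of libraries per population, and its p-values use the spread of the population difference across all 3 ages. A shift shared by both libraries of an age enters the rise and not that spread. A technical shift of that kind cannot be told apart from age. Without the E15.5 pair, Syt16 and Snap25 alone were called, and without any 1 of the 4 amplified libraries no member was called. With CPM values 183 genes rose and 61 fell, in place of 736 and 442. Leaving out the non-IPN library of E13.5 moved the fitted difference of Pclo from 1.21 to 0.70. Leaving out 1 library at a time gave 1.51 to 4.95 for Sv2a (1.51 without non-IPN at E13.5, 4.95 without IPN at E13.5) and 1.19 to 3.78 for Syt6 (1.19 and 3.78 without IPN and non-IPN at E13.5).

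The third comparison asked whether the IPN to non-IPN ratio moves with embryonic day. For Syn2, Sv2a and Syt4 the ratio fell with age, and no member was called in the other direction. These 3 members are 6.98% of the list, against 1.3% of all genes called in either direction and 0.68% called lower (limma). An unadjusted p under 0.05 was reached by 11 members and 3263 of all genes.

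Syn2, a synapsin of the vesicle reserve pool, had the smallest adjusted p. In age order it stood at 66.57, 51.88 and 10.94 CPM for IPN, and at 21.02, 107.3 and 36.08 CPM for non-IPN. IPN was higher at the first age and lower at the other two. Its log2 ratio fell by 1.14 ± 0.18 per day (limma, adjusted p = 0.00934). Sv2a had log2 ratios of 2.44, -0.11 and -1.87, a slope of -1.42 ± 0.24 per day (limma, adjusted p = 0.0113). Sv2a crossed from higher in IPN to higher in non-IPN. For Syt4 the ratios were 3.47, 1.98 and 0.86, a slope of -0.85 ± 0.16 (limma, adjusted p = 0.017), so IPN remained higher while the gap narrowed. In non-IPN, Syt4 differed by 2.84 on the log2 scale between E13.5 and E16.5, and in IPN by 0.23.

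Sv2b narrowed in the same direction, with ratios of 4.65, 3.87 and 1.99, but its slope of -0.82 ± 0.29 was not called (limma, adjusted p = 0.168). Syt6 had the largest slope in the other direction (0.92 ± 0.28, limma adjusted p = 0.108); median-of-ratios scaling gave 0.94 (limma, adjusted p = 0.0213). Between E13.5 and E16.5 the value went down in IPN and up in non-IPN in 7 members (16.3%), against 13.6% of all genes: Syt3, Sv2b, Vamp1, Nsf, Syn2, Rims2 and Unc13b. In CPM these were 5 (11.6%, against 14.7%), without Nsf and Unc13b. Neither share stands far from its background. The slope has 1 residual degree of freedom, and the E15.5 pair enters it beside amplified pairs. The pan-neuronal markers had median log2 ratios of 1.45, 0.18 and 0.22 at these ages, and the 8 projection neuron markers 3.13, 3.63 and 0.99. Between E13.5 and E16.5 the projection neuron markers had a median log2 change of -0.04 in IPN and 1.88 in non-IPN. The part of both marker lists, and of the blood RNA at E13.5, in the 3 slopes was not tested.

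**Figure D4:**
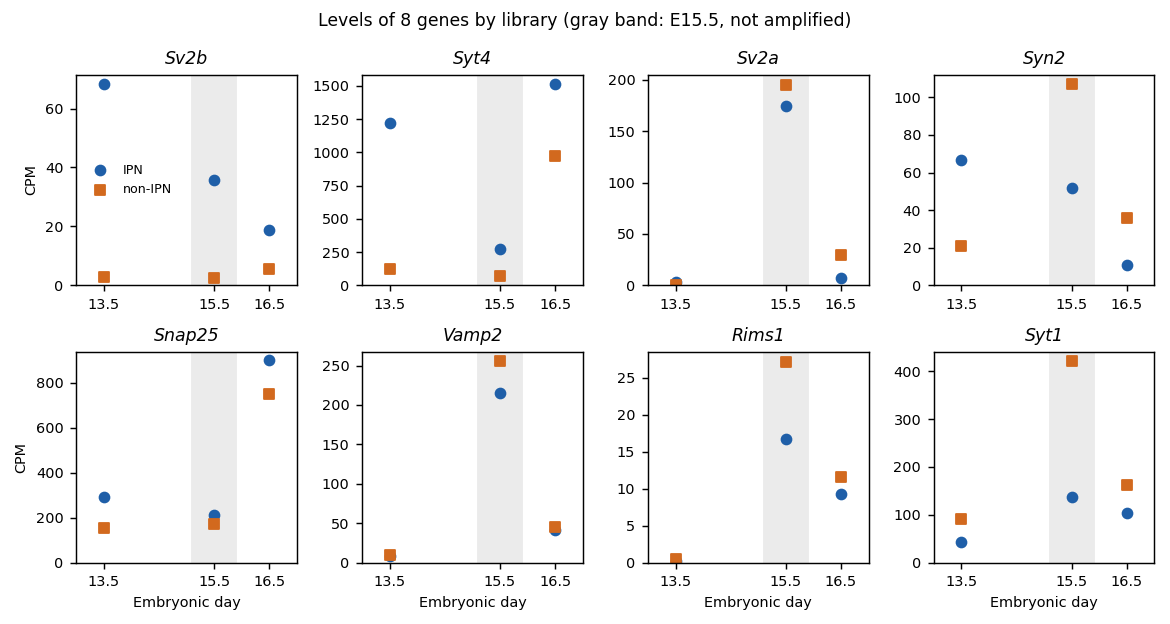
Level in CPM (vertical axis, from 0) against embryonic day for 8 genes, with IPN as circles, non-IPN as squares and 1 library per point; the gray band marks the E15.5 libraries, which were not amplified. Syn2 and Sv2a show the populations changing order, and Snap25 is highest at E16.5 whereas Vamp2 is highest at E15.5.

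The E15.5 libraries differ from the others in age, cell number and amplification, which cannot be told apart, so their levels were described and not tested. In 24 of 43 members (55.8%) both E15.5 libraries were above all 4 amplified libraries, against 27.6% of all genes. Both were below in 1, Vamp4 (2.33%), against 15.5%. Among genes with a mean of at least 1 CPM, both were above in 57.9% of 38 members and in 37.5% of genes. Both were below in 2.63% and 17.8%. Syp was at 192.4 and 115.9 CPM in IPN and non-IPN at E15.5 and at most 4.04 elsewhere. Cplx2, Sv2a, Vamp2 and Stx1a were also highest at E15.5 in both populations, with mean log2(CPM + 1) above that of the amplified libraries by 4.02, 4.88, 3.51 and 3.51. For Syt4 and Snap25 the E15.5 mean was below that of the amplified libraries, with differences of -2.27 and -1.13 on that scale. In neither gene were both E15.5 libraries below all 4 amplified ones. In non-IPN, Snap25 was at 170.5 CPM at E15.5 and at 152.0 at E13.5.

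Across the 43 genes, the E15.5 difference was related to the GC content of the longest coding transcript, with a Pearson r of 0.52 and a Spearman rho of 0.51. Over the 17650 tested genes with a matched transcript these were 0.47 and 0.5. Genes are not independent replicates and share libraries, so this is a description. The transcripts of Syp (56.6% GC) and Stx1a (58.5%) are rich in GC, and those of Syt4 (40.7%) and Snap25 (43.4%) are poor. Bsn, at 59.8% GC, differed by less than 0.01. The fitted differences of the 3 comparisons had a Pearson r with GC content of 0.04 between populations, -0.04 between E16.5 and E13.5, and 0.08 for the slope with age, over the same 43 genes.

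**Figure D5:**
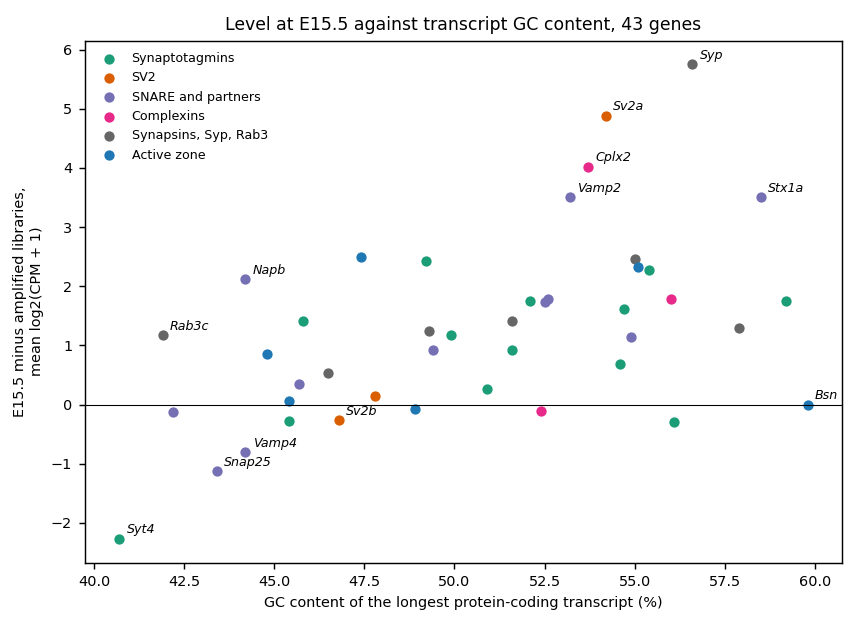
Difference in mean log2(CPM + 1) between the 2 E15.5 libraries and the 4 amplified libraries (vertical axis) against the GC content of the longest protein-coding transcript in percent (horizontal axis), 1 point per gene, colored by group. Syp, Sv2a and Cplx2 lie highest and Syt4 lowest, at the low end of GC content.

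Promoter windows of the members were searched for the 2 parts of the element bound by REST, a repressor of neuronal genes outside neurons. TTCAGCACC was found on either strand in 1 of 43 member windows (2.33%) and in 0.301% of all windows. GGACAGC was found in 3 (6.98%, all of Syt6) and 5.28%. By gene, TTCAGCACC was in 1 of 33 members and in 94 of 27025 genes, and GGACAGC in 1 and 1658. The motifs do not overlap each other. The Syn1 window (GRCm38.p6, chrX:20920919-20921168, minus strand) is shown because it holds the first motif, in capitals, which begins 232 bases before the start. A match of letters is not evidence of binding.
Syn1: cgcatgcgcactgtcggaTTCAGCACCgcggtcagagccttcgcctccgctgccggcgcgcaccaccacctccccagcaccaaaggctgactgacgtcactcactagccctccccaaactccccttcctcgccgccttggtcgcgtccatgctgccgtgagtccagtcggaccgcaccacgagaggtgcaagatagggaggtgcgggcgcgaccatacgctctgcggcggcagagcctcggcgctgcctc
Syn1 levels were 21.72, 87.93 and 59.50 CPM for IPN, against 27.10, 97.75 and 53.40 for non-IPN, so the libraries of each age were close, and it was called in none of the 3 comparisons.

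Other genes of release and recycling were examined as a companion list of 68, of which 65 were found and 64 tested. Between populations 1 was higher and 3 were lower in IPN, 6.25% of the list against the 3.39% given above. Rab3d, a Rab3 paralog known from secretory cells, was at 19.84, 107.0 and 23.25 CPM in IPN and at 5.86, 18.36 and 8.03 in non-IPN (2.08 ± 0.35, limma adjusted p = 0.00957). Cadps2, which primes dense-core vesicles, was at 0.19, 0.80 and 0.41 CPM against 31.67, 20.25 and 28.37 (-5.68 ± 0.68, limma adjusted p = 0.00149). Dnm3, a dynamin of membrane fission, was lower by a fitted -1.16 ± 0.24 (limma, adjusted p = 0.0253). Vamp8, an endosomal SNARE also used by blood cells, was at most 0.09 CPM for IPN, against 14.87, 5.80 and 1.91 for non-IPN (-5.62 ± 0.87, limma adjusted p = 0.00545). In the same non-IPN libraries the microglia markers summed to 896.1, 928.1 and 468.8 CPM and the red blood cell markers to 49254.3, 276.5 and 17.5 CPM, and the part of these cells in the Vamp8 difference was not tested. For the slope with age no companion gene was called (9 at an unadjusted p under 0.05, limma).

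With age, 9 companion genes rose and 3 fell, 18.8% of the list against 6.02%. Among the risers, Rph3a, a Rab3 effector, went from 0.19 to 4.45 CPM in IPN and from 0.29 to 33.30 in non-IPN (5.22 ± 0.73, limma adjusted p = 0.00442). Ppfia2, a liprin that organizes the active zone, went from 80.21 to 374.7 and from 24.24 to 235.5 CPM (2.63 ± 0.34, limma adjusted p = 0.00364). Scamp5, Dnajc5, Erc1, Dnm3, Sh3gl2 and Itsn1 rose with fitted differences of 1.0 to 1.98. Stxbp6, also called amisyn, and Vamp3, a SNARE of recycling endosomes, fell by 3.03 ± 0.46 and 1.28 ± 0.31 on the log2 scale (limma, adjusted p = 0.00624 and 0.0394).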

How the data were processed

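RNA was sequenced in 6 libraries, 1 per population and age. The submitters' processing notes name TopHat 1.2.0, CASAVA 1.9, edgeR, SAMtools 0.1.18 and build mm9. What each did, and how values were counted and scaled, is not given in the sources used here. The deposited whole numbers were treated as a signal scaled by the authors, not as raw counts, since the upper quartile was 1501 or 1502 in both E15.5 libraries and 438 to 444 in the others. True depth is therefore unknown, and no counting interval is given.

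Files were joined by symbol, and 6 rows of 3 repeated symbols were dropped. Of 20367 genes, 19561 were above 0 in a library and were tested with limma 3.58.1 (R 4.3.3, trend and robust) on log2(value + 1), which understates changes of low genes. Population and age were factors (2 residual degrees of freedom, with a median prior of 8.3). The slope model added population by day (1 residual, with a median prior of 14.5). P-values were Benjamini-Hochberg adjusted over all genes, with a threshold of 0.05. Ages pair the libraries and are the only replication, so p-values measure how a difference varied over these libraries, which may be technical. The fit was run on simulated data with noise drawn independently for each library. Such noise holds no technical shift shared by both libraries of an age, so that limit was not tested. Members and lists were chosen with earlier results of these data known. By the naming rule, levels in all libraries are given for called members and for the member of highest mean level in each group, and others by range or where needed to describe a family; called companion genes are named, with the exception given below. Transcripts (GENCODE M21) and RefSeq windows are of GRCm38, not mm9, and no coordinate was converted. Of 12 pan-neuronal markers, 11 were used; of the companion list, 3 genes were not analysed here, and some called genes are counted but not reported here by name. Alternatives covered pseudocount, scaling, filter, moderation, pairing and left-out libraries; direction counts in CPM were added after seeing the data. The endothelial list summed to at most 3.6 CPM in any library, and the red blood cell list to 49254.3 CPM in non-IPN at E13.5 and at most 276.5 elsewhere.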

Additional observations from a re-analysis of the deposited data

Results flagged for a closer look

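In 3 genes the change with age differed between the populations by the test of the population by day term. The IPN to non-IPN log2 ratio changed per day by -0.85 for Syt4, -1.42 for Sv2a and -1.14 for Syn2. From E13.5 and E16.5 alone, without a test, the slopes were -0.87, -1.44 and -1.10.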

How the results depend on the processing

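The called members and a few others were followed by name, and none of these changed direction under any alternative. Other members did. Between populations 32 members were above 0 in the main fit, and 28 both with CPM and without the E13.5 pair. Between populations, 664 genes and 2 members were called. This became 196 and 0 with CPM by column total, 54 and 0 without the E15.5 pair, and 0 and 0 both without trend and robust options (1946 genes at an unadjusted p under 0.05) and without the age term (676). Other pseudocounts, the filter at 1 CPM, median-of-ratios scaling and leaving out the E13.5 or E16.5 pair kept Sv2b and Syt4 called.

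Between E16.5 and E13.5, 1178 genes and 10 members were called. Numbers were 697 and 8 with a pseudocount of 5, 244 and 6 with CPM, 97 and 2 without the E15.5 pair, and 0 and 0 without trend and robust options (3414 genes at an unadjusted p under 0.05) or without any 1 amplified library (1809 to 4025). A left-out library leaves 1 residual degree of freedom. Snap25, Vamp2, Napb, Cplx1, Rab3c and Rims1 were called under both other scalings.

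For the slope, 255 genes and 3 members were called, against 530 and 3 with a pseudocount of 0.5, 162 and 3 with 5, 906 and 3 with CPM, 1558 and 6 with median of ratios, and 0 and 0 without trend and robust options (2321 genes at an unadjusted p under 0.05). The 3 members remained among the 6. The cause of these differences was not tested.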
